A study of Mus musculus with 16 samples.

Results

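The genes that copy DNA and commit a cell to S phase were examined in WT and Ikaros-deficient dendritic cell (DC) progenitors. Their 43 symbols were a given list, and each was read from the array probe set that carries that symbol alone, or from the brightest such probe set where a symbol has several. All 43 had a probe set of their own, out of 19938 genes measured. The arrays cover 8 groups with 2 arrays in each. MDPs, progenitors of both monocytes and DCs, and the later CDPs, which are committed to DCs, were CD45.2+ and came from bone marrow of WT mice or of IkL/L mice, which are homozygous for a hypomorphic Ikzf1 allele that leaves little functional Ikaros protein. Sorted cells of every group were kept for 24 h with conditioned medium of a Flt3L-producing cell line and with unfractionated CD45.1+ WT bone marrow, and received either the γ-secretase inhibitor (GSI) Compound E at 5 µM or vehicle (DMSO). CD45.2+ cells were then sorted out again and their RNA was amplified and hybridised. The mutation is carried by all cells of the donor mice, which by the study's methods were young adults, while the supporting marrow is WT in every group. The legend that describes these arrays gives 2 mice per condition, but no source says which mouse an array holds, so the p values below measure the spread between arrays of a group. The comparisons address whether Ikaros loss, progenitor stage or GSI changes this set of transcripts.

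DNA replication is prepared in G1, when the origin recognition complex, Cdc6 and Cdt1 load the Mcm2-7 helicase onto origins. The Cdc7 kinase with its activating subunit Dbf4, and cyclin E with its kinase, then fire the origins as Cdc45 and the GINS complex join the helicase. Primase and DNA polymerases synthesise the new strands, the PCNA clamp and its loader keep them on the template, and many of these genes are transcribed by E2F factors in late G1 and S phase. Progenitors of DCs divide in response to Flt3L, and DCs leave the cycle as they mature.

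To show the sequence this family is known for, the promoters of the members were searched for the letters TTTCGCGC and TTTGGCGC, on both strands, which are strong forms of the E2F site. RefSeq promoter windows (mouse build GRCm38.p6), which run from upstream of each annotated start to just inside the gene, were at hand for 36 of the 43 members. Of these, 10 (27.8%) held a match, compared with 0.929% of all genes with such windows and 4.0% of 25 genes of a mitosis list. CHR letters (TTTGAA), by contrast, lay in 16.7% of the members, 72.0% of the mitosis list and 20.2% of all genes, and CCAAT letters lay in 58.3%, 80% and 41.1%. Among members with an E2F match upstream of the start, the 4 with the largest fall in vehicle-treated IkL/L CDPs were Pola1, Mcm5, Mcm6 and Rfc3. The match of Pola1 lies within the annotated bounds of the gene and is not printed. The others follow, because they show the site before genes of this set, in the direction of the gene, up to the base before the annotated gene, with the matching letters in capitals. Overlapping matches on the opposite strands form 1 run of capitals in Mcm5 (chr8:75109309-75109467, + strand) and in the first run of Mcm6 (chr1:128359706-128359905, - strand), while Rfc3 (chr5:151651209-151651408, - strand) holds a single match that begins 10 bases before the start.
Mcm5: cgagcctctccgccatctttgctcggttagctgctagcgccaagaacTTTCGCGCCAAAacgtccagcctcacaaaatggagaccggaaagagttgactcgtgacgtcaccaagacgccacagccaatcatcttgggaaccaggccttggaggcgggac
Mcm6: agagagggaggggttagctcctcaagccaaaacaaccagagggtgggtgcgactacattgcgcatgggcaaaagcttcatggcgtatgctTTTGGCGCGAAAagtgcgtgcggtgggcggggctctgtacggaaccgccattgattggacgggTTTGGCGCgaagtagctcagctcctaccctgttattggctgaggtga
Rfc3: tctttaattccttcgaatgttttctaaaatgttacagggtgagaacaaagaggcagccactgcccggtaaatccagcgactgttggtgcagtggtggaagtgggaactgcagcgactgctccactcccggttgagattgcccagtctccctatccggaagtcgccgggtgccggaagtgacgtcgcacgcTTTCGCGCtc

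Values are log2 signals from RMA, a method that corrects background, normalises between arrays and summarises probes. The signals ran from 2.55 to 13.46 over all probe sets and the array medians from 4.52 to 4.65. Arrays of the same group correlated at 0.983 to 0.996 over all genes. Ikzf1 itself read 8.36 to 8.94 in the 8 IkL/L arrays and 8.90 to 9.20 in the 8 WT arrays, and whether its probes lie in the altered part of the allele is unknown. Csf1r, the CD115 receptor of these progenitors, was bright in all arrays (9.62 to 10.88), and Flt3 read 6.36 to 7.76 in MDP and 7.71 to 9.60 in CDP arrays. Kit read 4.85 to 6.64 in WT CDPs, 6.69 to 7.61 in IkL/L CDPs and 5.94 to 8.05 in MDPs. Cd34 read 8.90 to 10.36 in WT CDPs and 8.35 to 9.64 in IkL/L CDPs. Myb read 7.68 to 9.53 in MDPs and 6.58 to 8.81 in CDPs. With GSI Cx3cr1 read 7.25 to 8.61, against 8.77 to 9.81 with vehicle, and Irf8 7.67 to 8.57 against 8.31 to 9.34. Csf2rb (9.96 to 10.91) was bright and Sox4 (3.92 to 4.68) dim in all arrays. An array stood apart in vehicle-treated WT CDPs. A primary granule list of 7 genes was read, namely Elane, Mpo, Prtn3, Ctsg and Ms4a3 with the transcription factor genes Cebpe and Gfi1. In array 2 of vehicle-treated WT CDPs these genes lay at a median of 1.09 above their mean over all arrays, compared with -2.13 in array 1 of the same group. The medians and counts that lead a comparison with this group are therefore also given without its arrays where that moved them. The replication genes themselves also differed between arrays of a group. They were higher in array 2 than in array 1 for 40 to 43 of the 43 genes in 7 groups, and for 5 of 43 in GSI-treated IkL/L MDPs, although 45.9% to 56.9% of all genes were higher in array 2.

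Ikaros-deficient CDPs had lower mean signals for most of the set, by an amount that depended on single arrays. With vehicle the IkL/L mean lay below the WT mean for 41 of the 43 genes, compared with 56.5% of all genes, and with GSI for 42, compared with 54.7%. The count with vehicle was 26 without array 2 of the WT group, the one with granule transcripts. The median log2 fold change of the 43 genes was -0.48 with vehicle and -0.66 with GSI, against -0.02 and -0.01 for all genes, and the single genes ranged from -0.96 to 0.16 and from -1.36 to 0.20. From these bulk arrays fewer cycling cells and less RNA per cell cannot be told apart. On a scale where each gene is set to its mean over the 16 arrays, the median of the 43 genes lay at -0.71 and -0.36 in vehicle-treated and at -0.68 and -0.36 in GSI-treated IkL/L CDPs. It was -0.39 and 0.29 in vehicle-treated WT CDPs and -0.19 and 0.45 with GSI, so that the lower WT array with vehicle fell between the IkL/L arrays while the GSI groups did not overlap. The median with vehicle was -0.87 without array 1 of the WT group and -0.0845 without array 2. With GSI it was -1.02 without WT array 1 and -0.35 without WT array 2. Each of these values sets a single WT array against both IkL/L arrays. In the CDP groups array 2 read above array 1 for 40 to 43 of the 43 genes. Between arrays of the same number the IkL/L median was the lower in both treatments, although no label pairs them.

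**Figure D1:**
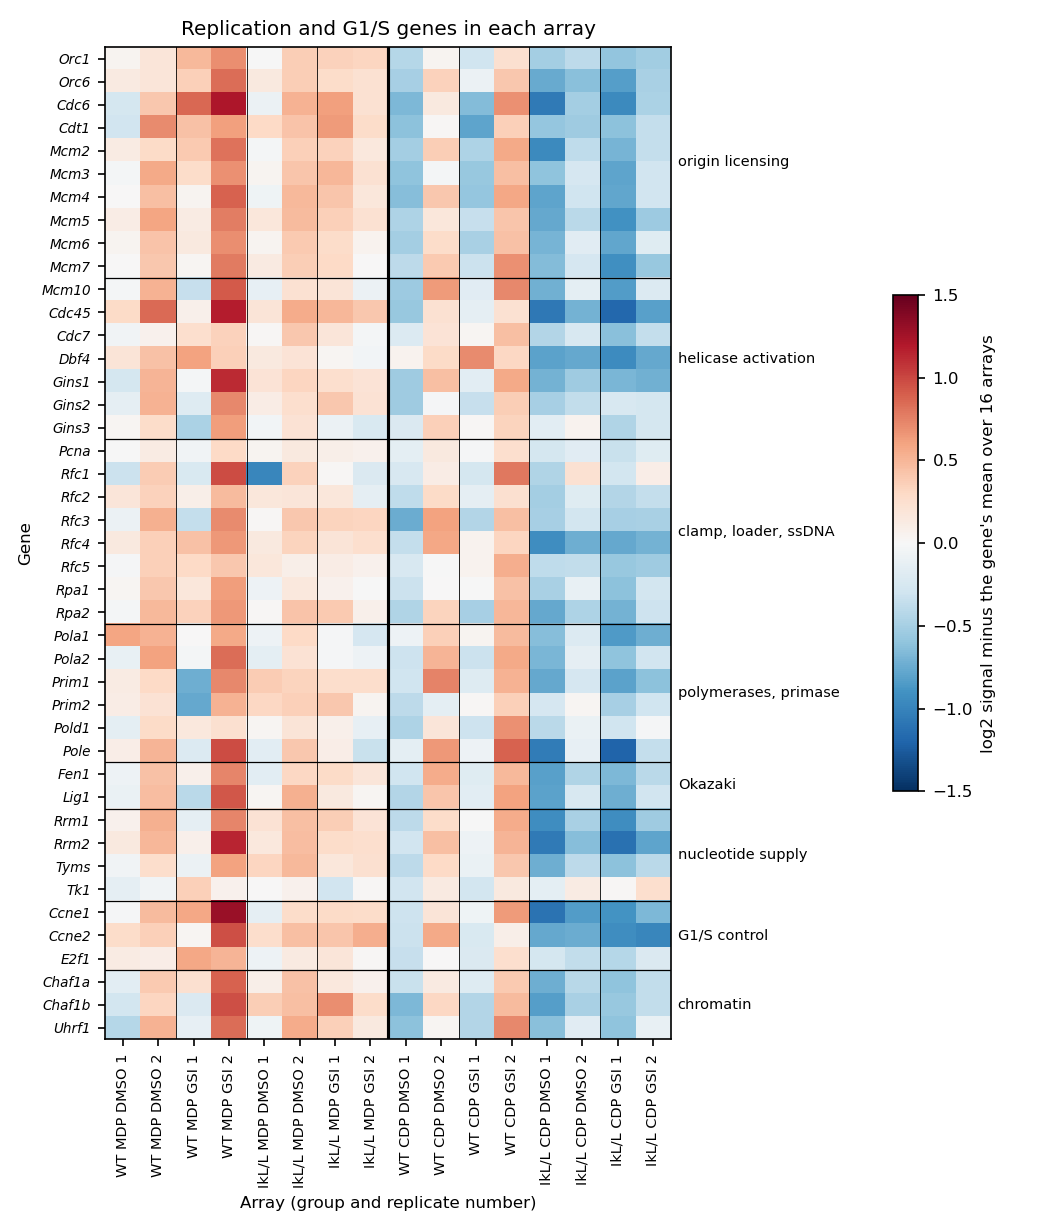
Heat map of the 43 genes (rows, grouped by role) in the 16 arrays (columns, by group and replicate number), where colour is the log2 signal minus the mean of that gene over all arrays. The 4 columns of IkL/L CDPs on the right are blue for most genes, and array 2 of GSI-treated WT MDPs holds the highest signal of 34 of the 43.

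In a single treatment the test was passed by 1 gene with vehicle and 2 with GSI. By limma without a term for the replicate number and with Benjamini-Hochberg adjustment over all genes, 1 of the 43 fell in vehicle-treated IkL/L CDPs at an adjusted p under 0.05, compared with 0.246% of all genes, and 2 fell with GSI, compared with 0.792%, while 0 rose in either treatment (0.933% and 1.35% of all genes). With vehicle the count was 2 without WT array 1 and 0 without WT array 2 or either IkL/L array, and with GSI it was 1 without WT array 2 or either IkL/L array. At an unadjusted p under 0.05 these counts were 8 (4.41% of all genes) and 18 (4.85%), and the former was 19 without WT array 1 and 2 without WT array 2. By size alone, 12 genes were over 1.5-fold lower with vehicle (2.13% of all genes) and 22 with GSI (2.26%). The arrays of the groups did not overlap for 15 genes with vehicle (22.7% of all genes) and for 28 with GSI (20.6%). With vehicle the 1.5-fold count was 28 without WT array 1, 2 without WT array 2, 5 without IkL/L array 1 and 25 without IkL/L array 2. The count without overlap can only rise or stay when an array is left out, for these genes as for all genes. With GSI the 1.5-fold count was 40 without WT array 1 and 10 without WT array 2. No array was left out of the values below unless stated.

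The mean genotype difference over both treatments rests on 4 arrays against 4, and here 8 of the 43 genes fell, compared with 1.92% of all genes, and 0 rose, compared with 3.21%. The IkL/L mean was lower for 42 of the 43 (57.6% of all genes), with a median log2 fold change of -0.54, which was -0.33 without array 2 of GSI-treated WT CDPs and -0.37 without array 2 of vehicle-treated WT CDPs. These were Dbf4, Rrm2, Ccne1, Rfc4, Ccne2, Pola1, Rfc5 and Cdc7. With the fit limited to the CDP arrays the count was 1, since all but Dbf4 lost the call. At an unadjusted p under 0.05 the count was 24 (7.56% of all genes), or 11 without array 2 of vehicle-treated WT CDPs, and 20 genes were over 1.5-fold lower (2.01%). The signals of all 4 IkL/L arrays lay below all 4 WT arrays for 13 genes (5.74% of all genes), which were those 8 with Cdc45, Pcna, Fen1, Rrm1 and Chaf1a. The count of 8 was 2 without array 2 of vehicle-treated WT CDPs, without array 1 of vehicle-treated IkL/L CDPs or without either array of GSI-treated IkL/L CDPs. It was 3 without array 2 of GSI-treated WT CDPs, 4 without array 2 of vehicle-treated IkL/L CDPs, and 5 without any one array of vehicle-treated WT MDPs or GSI-treated IkL/L MDPs, which enter only through the shared spread. The 1.5-fold count was 9 without array 2 of vehicle-treated WT CDPs and 11 without array 2 of GSI-treated WT CDPs. Leaving out an array cannot lower the count without overlap.

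**Figure D2:**
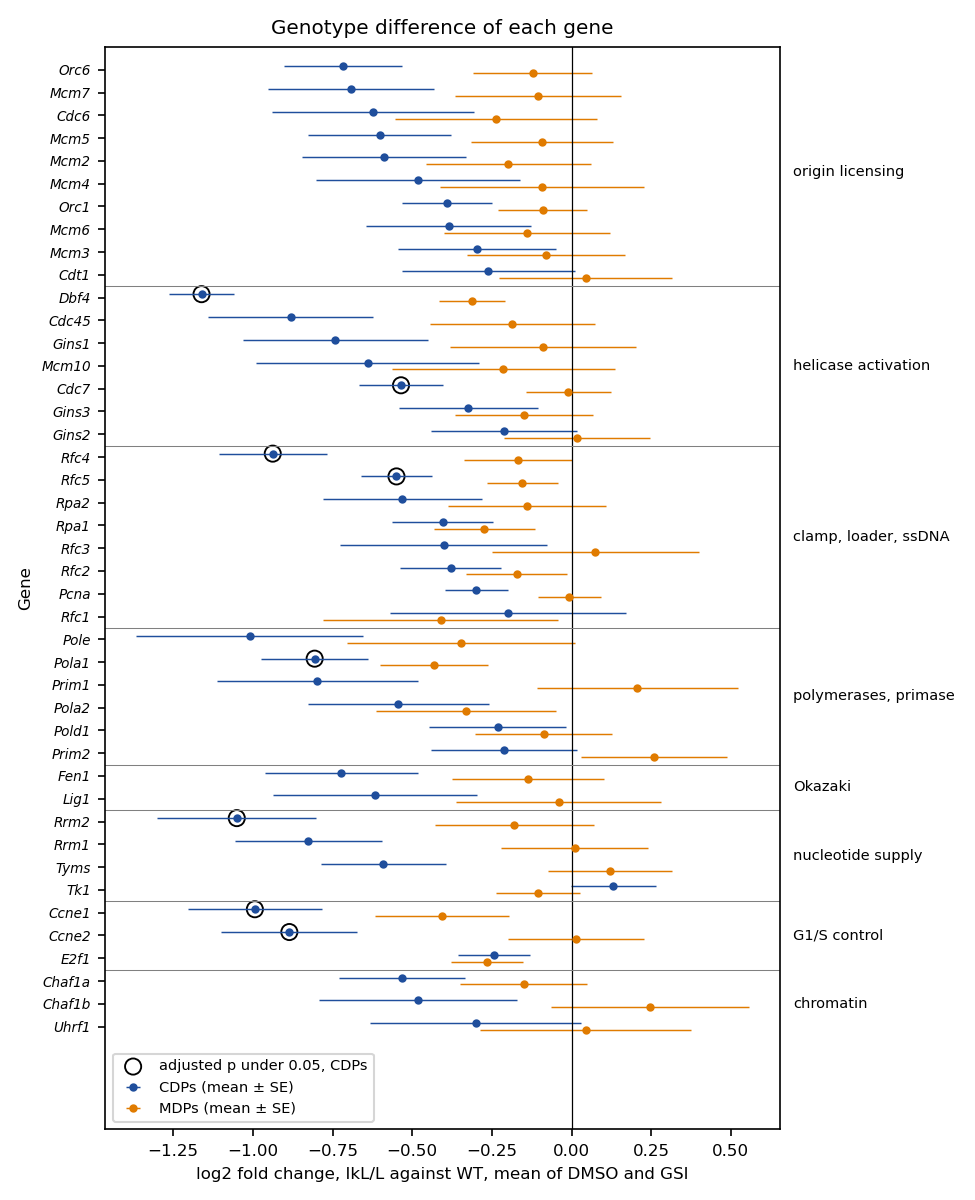
Log2 fold change of IkL/L against WT (x axis), as the mean over vehicle and GSI with its standard error, for each gene (y axis, grouped by role) in CDPs (blue) and MDPs (orange). Rings mark the 8 genes past the adjusted threshold in CDPs, and the blue points lie left of 0 for all genes but Tk1.

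The origin licensing genes lay lower together without any of them passing the test in CDPs. All 10 had a lower IkL/L mean over both treatments (57.6% of all genes), with a median log2 fold change of -0.54 (range -0.72 to -0.26). Of them, 5 were over 1.5-fold lower (2.01% of all genes), namely Orc6, Mcm7, Cdc6, Mcm5 and Mcm2. Orc6, a subunit of the origin recognition complex, had the largest difference of the role. It read 8.29 and 9.13 in vehicle-treated WT CDPs and 8.69 and 9.19 with GSI, against 8.03 and 8.15 in vehicle-treated IkL/L CDPs and 7.96 and 8.29 with GSI. Its groups did not overlap in either treatment, and the log2 fold change over both was -0.72 (SE 0.19, limma adjusted p = 0.0554). Mcm3, a helicase subunit, had the smallest difference with vehicle. Its IkL/L signals of 8.15 and 8.50 overlapped the WT signals of 8.15 and 8.72, with a log2 fold change of -0.11 (SE 0.35). Orc1, the ATPase subunit of the recognition complex, read 5.28 and 5.75 in vehicle-treated WT CDPs and 5.41 and 5.95 with GSI. In IkL/L CDPs it read 5.20 and 5.32 with vehicle and 5.12 and 5.19 with GSI. These are dim signals, and its genotype difference over both treatments was -0.39 (SE 0.14, limma adjusted p = 0.182).

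Among the genes that turn the loaded helicase on, whose differences from each other were not tested, Dbf4 had the lowest limma adjusted p. Its product is the regulatory subunit that Cdc7 needs for kinase activity. Dbf4 read 7.83 and 8.07 in vehicle-treated WT CDPs and 8.49 and 8.09 with GSI, against 6.98 and 7.01 in vehicle-treated IkL/L CDPs and 6.84 and 7.01 with GSI. All IkL/L CDP arrays were thus below all other arrays of the series, since MDPs read 7.97 and 8.22 (WT, vehicle), 8.38 and 8.14 (WT, GSI), 7.93 and 7.98 (IkL/L, vehicle) and 7.82 and 7.74 (IkL/L, GSI). The log2 fold change in CDPs was -0.96 with vehicle (SE 0.15, limma adjusted p = 0.0112), -1.36 with GSI (SE 0.15, limma adjusted p = 0.000937) and -1.16 over both (SE 0.10, limma adjusted p = 0.00012). The calls with GSI and over both treatments held when any of the 16 arrays was left out, and the call with vehicle was lost without 3 of them (adjusted p up to 0.120 in limma). With the fit limited to the arrays compared, the call over both treatments held and those in the single treatments were lost. Cdc7, the kinase itself, fell less. It read 4.94 and 5.35 in vehicle-treated WT CDPs and 5.16 and 5.59 with GSI, against 4.70 and 4.90 in vehicle-treated IkL/L CDPs and 4.52 and 4.78 with GSI, all close to the array medians. MDPs read 5.09 and 5.21 (WT, vehicle), 5.39 and 5.48 (WT, GSI), 5.16 and 5.54 (IkL/L, vehicle) and 5.32 and 5.11 (IkL/L, GSI). The log2 fold change of Cdc7 over both treatments was -0.54 (SE 0.13, limma adjusted p = 0.0462), and the call was lost without any of 12 arrays. Of the helicase cofactors, Cdc45 differed by -0.88 (SE 0.26, limma adjusted p = 0.0924), Gins1 by -0.74 and Mcm10, which helps the helicase open the origin, by -0.64, and none passed the threshold. Gins3, another GINS subunit, had the smallest difference with vehicle, and its IkL/L signals of 6.31 and 6.52 lay between the WT signals of 6.24 and 6.82. All 7 genes of the role had a lower IkL/L mean over both treatments (57.6% of all genes), with a median of -0.64.

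The genes of the clamp and its loader differed in whether they passed the test, and differences between these genes were not tested. Rfc4 and Rfc5, small subunits of the loader that opens the PCNA ring, fell over both treatments, whereas Rfc2 (-0.38), Rfc3 (-0.40) and the large subunit Rfc1 (-0.20) did not pass the test. Rfc4 read 7.11 and 8.04 in vehicle-treated WT CDPs and 7.52 and 7.78 with GSI, against 6.52 and 6.73 in vehicle-treated IkL/L CDPs and 6.69 and 6.75 with GSI. MDPs read 7.61 and 7.82 (WT, vehicle), 7.90 and 8.12 (WT, GSI), 7.61 and 7.80 (IkL/L, vehicle) and 7.66 and 7.72 (IkL/L, GSI), all above the IkL/L CDPs. The log2 fold change of Rfc4 was -0.94 (SE 0.17, limma adjusted p = 0.00943), and this call held without any of the 16 arrays but was lost with the fit limited to the CDP arrays. Rfc5 was also called with GSI alone. It read 8.24 and 8.48 in vehicle-treated WT CDPs and 8.54 and 9.02 with GSI, against 8.10 and 8.12 in vehicle-treated IkL/L CDPs and 7.92 and 7.95 with GSI. MDPs read 8.47 and 8.84 (WT, vehicle), 8.78 and 8.89 (WT, GSI), 8.65 and 8.57 (IkL/L, vehicle) and 8.59 and 8.55 (IkL/L, GSI). Its log2 fold change was -0.25 with vehicle (SE 0.16, limma adjusted p = 0.746), -0.85 with GSI (SE 0.16, limma adjusted p = 0.0216) and -0.55 over both (SE 0.11, limma adjusted p = 0.0177). The difference between the GSI effects in IkL/L and WT CDPs was -0.59 for Rfc5 (SE 0.22) and did not pass the threshold (limma adjusted p = 1). Rfc1 had the smallest difference with vehicle, at 7.30 and 7.98 in IkL/L against 7.51 and 7.86 in WT CDPs. Pcna, the clamp, was the brightest gene of the set, at 11.34 and 11.63 in vehicle-treated WT CDPs and 11.46 and 11.74 with GSI. In IkL/L CDPs it read 11.22 and 11.31 with vehicle and 11.15 and 11.30 with GSI, a small difference of -0.30 without overlap (SE 0.10, limma adjusted p = 0.143). Rpa1 and Rpa2, subunits of the protein that coats single strands, differed by -0.40 and -0.53 and did not pass the test.

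Of the polymerase and primase genes, Pola1, the catalytic subunit of the polymerase that extends primers, fell over both treatments. It read 7.5 and 7.94 in vehicle-treated WT CDPs and 7.62 and 8.05 with GSI, against 6.94 and 7.37 in vehicle-treated IkL/L CDPs and 6.73 and 6.85 with GSI. MDPs read 8.17 and 8.10 (WT, vehicle), 7.58 and 8.15 (WT, GSI), 7.5 and 7.89 (IkL/L, vehicle) and 7.57 and 7.32 (IkL/L, GSI), so IkL/L MDPs also read below WT MDPs on average. The log2 fold change of Pola1 in CDPs was -0.81 (SE 0.17, limma adjusted p = 0.0203). Pole, the leading strand polymerase, had the largest difference of the role with vehicle but also wide replicates. It read 6.80 and 7.60 in vehicle-treated WT and 5.90 and 6.82 in vehicle-treated IkL/L CDPs, and the log2 fold change over both treatments was -1.01 (SE 0.36, limma adjusted p = 0.173). Pold1, the catalytic subunit of the lagging strand polymerase, differed least with vehicle, at 6.44 and 6.74 in IkL/L against 6.39 and 7.03 in WT CDPs. The primase subunits Prim1 and Prim2 differed by -0.80 and -0.21 over both treatments and the accessory subunit Pola2 by -0.54, and none passed the test. Fen1 and Lig1, which trim and seal Okazaki fragments, differed by -0.72 (SE 0.24) and -0.62 (SE 0.32). Fen1 read 6.78 and 7.63 in vehicle-treated WT CDPs and 6.90 and 7.56 with GSI, against 6.27 and 6.63 in vehicle-treated IkL/L CDPs and 6.40 and 6.68 with GSI. Lig1 read 7.55 and 8.41 in vehicle-treated WT CDPs and 7.83 and 8.59 with GSI, against 7.19 and 7.75 in vehicle-treated IkL/L CDPs and 7.26 and 7.71 with GSI. The arrays of the genotypes overlapped for Lig1 with vehicle and not for Fen1.

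The genes of nucleotide supply held, over both treatments, both the gene with the second largest difference and the only gene above 0. Rrm2, the cell-cycle regulated subunit of ribonucleotide reductase, read 8.65 and 9.39 in vehicle-treated WT CDPs and 8.87 and 9.45 with GSI, against 7.88 and 8.30 in vehicle-treated IkL/L CDPs and 7.82 and 8.15 with GSI. MDPs read 9.08 and 9.43 (WT, vehicle), 9.02 and 10.08 (WT, GSI), 9.09 and 9.39 (IkL/L, vehicle) and 9.21 and 9.19 (IkL/L, GSI). All IkL/L CDP arrays were below all other arrays, with a log2 fold change of -1.05 (SE 0.25, limma adjusted p = 0.0379) that lost its call without any of 12 arrays. Rrm1, the large subunit, differed by -0.83 (SE 0.23, limma adjusted p = 0.0755), and Tyms, thymidylate synthase, by -0.59. Tk1, the thymidine salvage kinase, read 8.08 and 8.50 in vehicle-treated WT CDPs and 8.10 and 8.51 with GSI, against 8.23 and 8.49 in vehicle-treated IkL/L CDPs and 8.38 and 8.62 with GSI. Its genotypes overlapped in both treatments, at a log2 fold change of 0.13 (SE 0.13). Tk1 has several probe sets, of which only the brightest was read here, so this value may not hold for the others.

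Both cyclin E genes fell, whereas E2f1 did not pass the test. Cyclin E activates the kinase that drives cells from G1 into S phase. Ccne1 read 6.81 and 7.31 in vehicle-treated WT CDPs and 7.05 and 7.75 with GSI, against 6.01 and 6.28 in vehicle-treated IkL/L CDPs and 6.21 and 6.44 with GSI. MDPs read 7.10 and 7.58 (WT, vehicle), 7.70 and 8.41 (WT, GSI), 6.98 and 7.40 (IkL/L, vehicle) and 7.41 and 7.40 (IkL/L, GSI). The IkL/L CDP arrays were below all others, with a log2 fold change of -0.99 (SE 0.21, limma adjusted p = 0.0221). Ccne2 read 7.99 and 8.88 in vehicle-treated WT CDPs and 8.09 and 8.40 with GSI, against 7.54 and 7.57 in vehicle-treated IkL/L CDPs and 7.38 and 7.33 with GSI. MDPs read 8.59 and 8.66 (WT, vehicle), 8.34 and 9.28 (WT, GSI), 8.58 and 8.76 (IkL/L, vehicle) and 8.73 and 8.86 (IkL/L, GSI). Its log2 fold change of -0.89 (SE 0.21, limma adjusted p = 0.0406) passed the threshold and was lost without any of 13 arrays, whereas that of Ccne1 was lost without any of 5. E2f1, an activator of this gene family, was dim, at 5.65 and 6.0 in vehicle-treated WT CDPs and 5.77 and 6.25 with GSI. In IkL/L CDPs it read 5.73 and 5.62 with vehicle and 5.57 and 5.78 with GSI, a difference of -0.24 (SE 0.11, limma adjusted p = 0.348). Of the genes that restore chromatin behind the fork, the histone chaperone subunits Chaf1a and Chaf1b differed by -0.53 and -0.48 and Uhrf1, which recognises hemimethylated DNA, by -0.30, and none passed the test. With vehicle Chaf1a and Chaf1b, which differed most in this role, had log2 fold changes of -0.48 each. Chaf1a read 6.35 and 6.67 in IkL/L against 6.76 and 7.23 in WT CDPs, and Chaf1b read 6.02 and 6.35 against 6.17 and 7.16. Uhrf1 read 8.29 and 8.76 against 8.30 and 8.95, the smallest difference of the role.

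**Figure D3:**
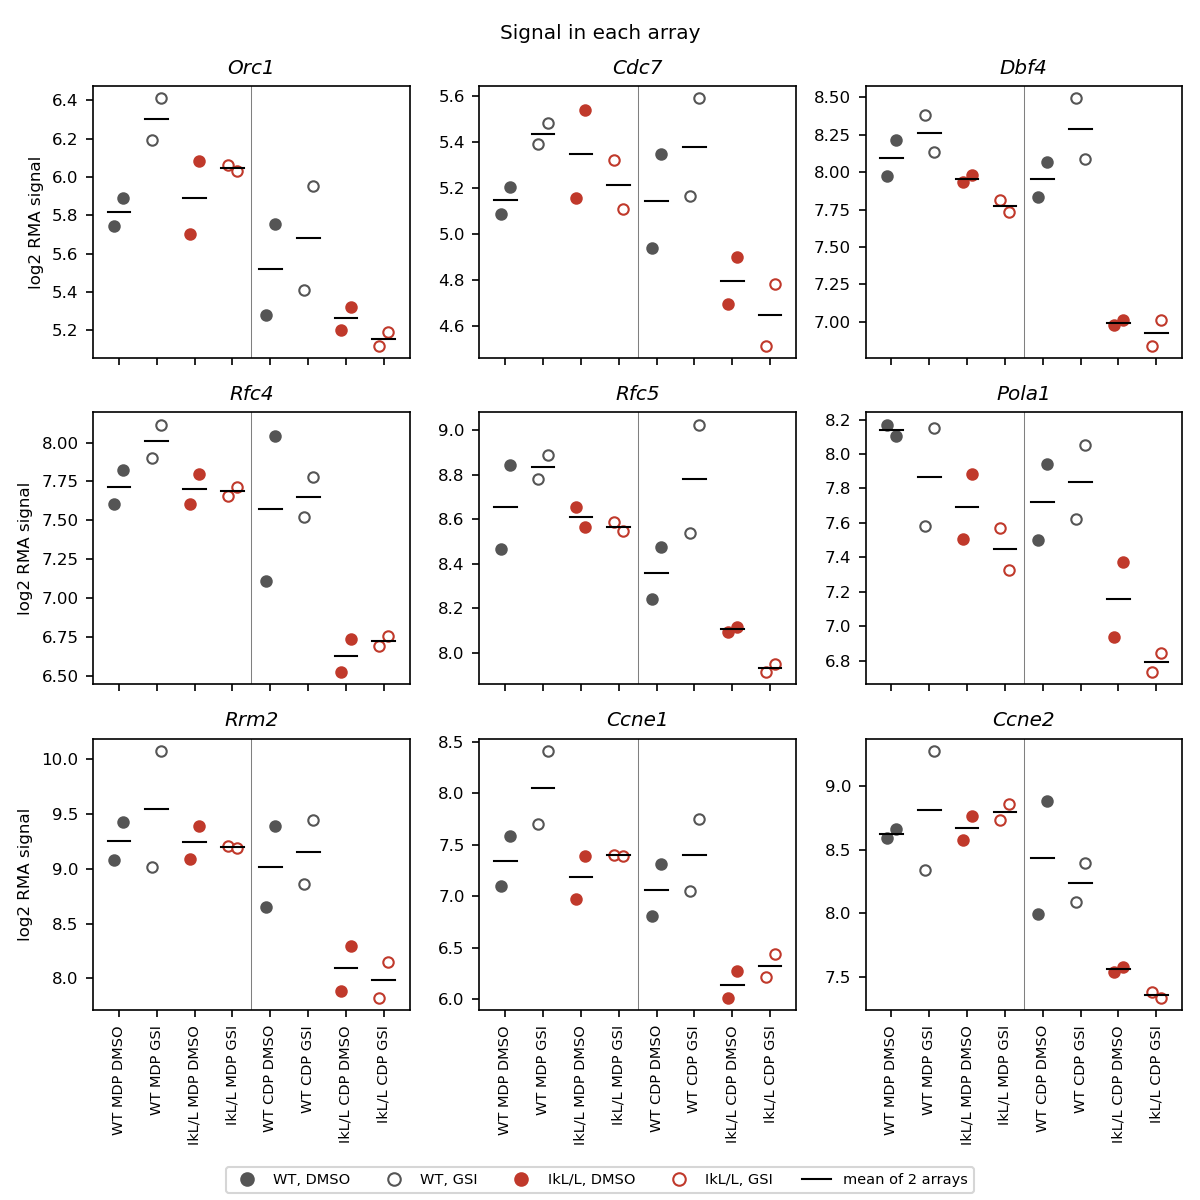
Log2 RMA signal (y axis, scaled per panel) of the 9 genes past the adjusted threshold in any comparison, with a point for each array (WT grey, IkL/L red, vehicle filled, GSI open) and a bar for the mean of 2 arrays. The IkL/L CDP points of Cdc7, Dbf4, Rfc4, Rfc5, Rrm2, Ccne1 and Ccne2 lie below all other points, and Orc1 was called between IkL/L CDPs and MDPs under GSI only.

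To determine whether the genotype difference was present in the earlier progenitors, the same comparisons were made in MDPs. None of the 43 genes passed the adjusted threshold there (0% of all genes were lower with vehicle, 0.00502% with GSI and 0.0602% over both, and 0.105%, 0.110% and 0.537% were higher). At an unadjusted p under 0.05 in limma, 0 genes were lower with vehicle (1.85% of all genes), 2 with GSI (3.15%) and 3 over both (3.79%), with 0 higher in each (2.56%, 3.66% and 5.01% of all genes). The median log2 fold change of the set was -0.01 with vehicle, -0.25 with GSI and -0.12 over both. Without array 2 of GSI-treated WT MDPs, which holds the highest signal of 34 genes, the value was 0.0931 with GSI and 0.024 over both, and with vehicle it was 0.17 without array 2 of vehicle-treated WT MDPs. Without array 1 of these groups the medians were -0.49 with GSI, -0.20 with vehicle and, for the GSI array, -0.25 over both. With vehicle 1 gene was lower and 5 were higher without overlap (14.9% and 15.2% of all genes). The genotype effect in CDPs less that in MDPs, taken over both treatments, had a median of -0.39 over the 43 genes against -0.01 over all genes, and 40 of the 43 lay below 0 (52.1% of all genes). In this test of the difference, 1 gene, Dbf4, passed the adjusted threshold (0.160% of all genes), at -0.85 (SE 0.15, limma adjusted p = 0.0311), and 10 were lower at an unadjusted p under 0.05 (3.07% of all genes), or 16 and 4 without array 1 and array 2 of vehicle-treated WT CDPs. The Dbf4 call was lost without any of 11 arrays, with adjusted p from 0.0119 to 0.110, and 2 genes were called without array 1 of vehicle-treated WT CDPs. The median was -0.65 without array 1 and -0.25 without array 2 of GSI-treated WT CDPs. Within a single treatment 0 genes passed in limma (0% of all genes with vehicle and 0.0251% with GSI), and 2 were lower at an unadjusted p under 0.05 with vehicle (1.59% of all genes) and 2 with GSI (2.10%). With GSI, 1 gene passed without array 2 of GSI-treated WT MDPs. Prim1 (-1.0, SE 0.45), Ccne2 (-0.90, SE 0.30) and Rrm2 (-0.87, SE 0.35) had differences of a similar size to Dbf4 with wider errors.

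The step from MDP to CDP was compared within each genotype. In WT cells the median log2 fold change of the 43 genes was -0.24 with vehicle and -0.25 with GSI. None passed the adjusted threshold in limma (0% of all genes with vehicle and 0.0100% with GSI), and at an unadjusted p under 0.05 there were 0 lower with vehicle (2.32% of all genes) and 3 with GSI (4.22%). These medians rest on single arrays. With vehicle the value was 0.10 without array 1 of the WT CDPs and -0.61 without array 2. With GSI it ran from -0.68, without array 1 of the WT MDPs, to 0.0807, without array 1 of the WT CDPs, and was -0.64 without array 2 of the WT CDPs. In IkL/L cells the medians were -0.71 with vehicle and -0.74 with GSI, and these comparisons share the IkL/L CDP arrays with the genotype comparisons above. The groups did not overlap for 38 genes with vehicle (24.5% of all genes) and 40 with GSI (26.9%), and 29 and 31 genes were over 1.5-fold lower in CDPs (3.07% and 3.27% of all genes). By the adjusted test, 1 gene fell with vehicle (0.426% of all genes), which was Dbf4 (-0.96, SE 0.15, limma adjusted p = 0.00876). With GSI 3 genes fell (0.767% of all genes), namely Ccne2 (-1.44, limma adjusted p = 0.0363), Dbf4 (limma adjusted p = 0.0141) and Orc1 (limma adjusted p = 0.0468). Orc1 read 6.06 and 6.03 in GSI-treated IkL/L MDPs against 5.12 and 5.19 in the CDPs. The other MDP signals of Orc1 were 5.75 and 5.89 (WT, vehicle), 6.19 and 6.41 (WT, GSI) and 5.70 and 6.08 (IkL/L, vehicle), so no MDP array lay below 5.70. Cdc45 had the largest stage difference with vehicle (-1.27, SE 0.37, limma adjusted p = 0.148), and its 4 MDP signals in IkL/L cells of 8.37 to 8.75 compare with 7.01 to 7.47 in CDPs.

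The counts of the stage comparison moved with single arrays. With vehicle the adjusted count of 1 was 0 without any array of the IkL/L vehicle groups, 2 without either array of GSI-treated WT MDPs and 3 without any one of the WT CDP arrays with vehicle. The 1.5-fold count of 29 was 17 without array 1 of the IkL/L CDPs and 18 without array 2 of the IkL/L MDPs. With GSI the adjusted count of 3 was 0 without any array of the IkL/L GSI groups, 1 without any array of vehicle-treated WT MDPs, IkL/L MDPs or IkL/L CDPs, and 5 without any one of the WT CDP arrays with vehicle.

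GSI for 24 h gave no called change in this set. The median log2 fold change was 0.19 in WT MDPs, 0.19 in WT CDPs, -0.02 in IkL/L MDPs and -0.04 in IkL/L CDPs, with 0 genes past the adjusted threshold in either direction in each (0% of all genes in either direction in both MDP populations, 0.0100% higher in WT CDPs, 0.00502% higher in IkL/L CDPs and 0% lower in both). At an unadjusted p under 0.05 in limma, 3 genes were higher in WT MDPs (3.89% of all genes), 2 in WT CDPs (1.82%) and 0 in IkL/L MDPs (1.4%) and IkL/L CDPs (1.94%). None was lower, compared with 2.88%, 2.28%, 1.21% and 1.55% of all genes in WT MDPs, WT CDPs, IkL/L MDPs and IkL/L CDPs. In WT MDPs the median was -0.17 without array 2 of the GSI group, and in WT CDPs it was -0.19 without array 1 of the vehicle group, 0.54 without its array 2 and 0.56 without array 1 of the GSI group. The medians of both IkL/L populations also changed sign without single arrays, with ranges of -0.16 to 0.11 in MDPs and -0.22 to 0.15 in CDPs. Averaged over the 4 populations, 0 genes passed (0.221% of all genes were higher and 0.0853% lower) and 1 was higher at an unadjusted p under 0.05 (6.01%). Ccne1 had a mean of 0.36 (SE 0.15, limma adjusted p = 0.393) and Cdc6, which recruits the helicase to origins, of 0.38 (SE 0.22). In WT MDPs Cdc6 read 7.76 and 8.12 with GSI against 6.65 and 7.31 with vehicle, groups that did not overlap, at a log2 fold change of 0.96 (SE 0.45, limma adjusted p = 0.743). The same signals were 7.53 and 7.13 against 6.81 and 7.43 in IkL/L MDPs, where the groups overlapped. The difference between the GSI effects in IkL/L and WT CDPs had a median of -0.21 over the 43 genes, with 0 past the adjusted threshold (0% of all genes) and 1 lower at an unadjusted p under 0.05 in limma (0.617% of all genes). This median was 0.14 without array 2 of GSI-treated WT CDPs, and 0.13 and -0.59 without array 1 and array 2 of vehicle-treated WT CDPs.

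The other genes of the same pathways were read from lists chosen with earlier results of these data known. Of 38 further replication genes, with a median log2 fold change of -0.33, 5 fell in IkL/L CDPs over both treatments (1.92% of all genes) and 0 rose (3.21%). Asf1b, a histone chaperone, fell by 1.06 on the log2 scale (SE 0.20, limma adjusted p = 0.0122), and Topbp1, which activates the checkpoint kinase and helps fire origins, by 0.66. The others were Rnaseh2b (-0.61), the licensing inhibitor Gmnn (-0.60) and Mcmbp (-0.43). Clspn (-0.98) and Hells (-0.82) had large differences that did not pass. Asf1b read 7.91 and 8.47 in vehicle-treated WT and 7.23 and 7.33 in vehicle-treated IkL/L CDPs. Of 28 further G1/S genes, with a median of -0.29, 10 fell (1.92% of all genes) and 0 rose (3.21%). They were Ccna2 (-1.42, SE 0.13), the cyclin of S and G2 phase, the CDK inhibitors Cdkn2c (-1.59, SE 0.22) and Cdkn2d (-0.77), E2f2 (-0.96), E2f7 (-0.83), E2f8 (-1.05), the E2F partners Tfdp1 (-0.67) and Tfdp2 (-0.62), the pocket protein gene Rbl1 (-0.67) and the phosphatase gene Cdc25a (-0.61). Cdkn2c and Cdkn2d encode proteins that hold cells in G1. The D-type cyclins Ccnd1 (0.28) and Ccnd2 (0.25) lay above 0 and did not pass. Without array 2 of vehicle-treated WT CDPs, 3 of the 38 and 3 of the 28 genes fell.

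Genes of mitosis had larger fold changes at the median, a difference between lists that was not tested. Of 27 measured, 22 fell in IkL/L CDPs over both treatments (1.92% of all genes) and 0 rose (3.21%). The median log2 fold change of the 27 was -1.28, with a range of -1.68 to -0.90. With vehicle the median was -1.03 and 7 fell (0.246% of all genes), compared with -0.48 and 1 of 43 in the replication set. The largest differences were in Kif11 (-1.68, SE 0.24), the motor that separates spindle poles, Hmmr (-1.68, SE 0.23) and Prc1 (-1.65, SE 0.34), both of the spindle, and the checkpoint kinase gene Bub1 (-1.63, SE 0.16). The rest of the 22 were Ttk, Kif2c, Tpx2, Nuf2, Ccnb2, Plk1, Cdkn3, Nek2, Cdc20, Ndc80, Top2a, Kif20a, Aurka, Bub1b, Ube2c, Mad2l1, Kif23 and Birc5. Bub1 read 7.84 and 8.55 in vehicle-treated WT CDPs and 8.64 and 8.62 with GSI, against 6.81 and 7.01 in vehicle-treated IkL/L CDPs and 6.49 and 6.83 with GSI. The proliferation marker Mki67 had a difference of -1.20 with a wide error (SE 0.49, limma adjusted p = 0.259). Without array 2 of vehicle-treated WT CDPs the counts were 19 over both treatments and 0 with vehicle. In MDPs the median of the mitosis list was -0.08 over both treatments and 0 genes passed (0.0602% of all genes were lower and 0.537% higher). Members of the replication set with E2F letters in their promoter window had a median of -0.40 (n = 10) and those without of -0.57 (n = 26), so the median difference was smaller in those with the letters.

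Transcripts of other cell types moved with the same groups. Of 9 measured genes of mature DCs, 8 rose in IkL/L CDPs over both treatments (3.21% of all genes), among them Fscn1 (4.28), Ccr7 (4.26) and Ccl22 (4.08). The median log2 fold change of the 9 was 3.55. It was 3.27 without array 1 and 3.83 without array 2 of vehicle-treated WT CDPs. The summed signal of that list, given as log2, was 12.67 to 13.16 in the 4 IkL/L CDP arrays and 8.09 to 9.64 in all others. The medians of the 43 replication genes lay at -0.71 to -0.36 in the IkL/L CDP arrays. In array 1 of vehicle-treated WT CDPs this median was -0.39 and the mature DC sum 9.21. In array 1 of vehicle-treated IkL/L CDPs they were -0.71 and 12.67. Genes of a late neutrophil list differed by genotype at both stages. Of 11, 10 rose in IkL/L CDPs (3.21% of all genes) and 4 in IkL/L MDPs (0.537%) over both treatments. The summed log2 signal of the 11 was 14.31 to 15.08 in IkL/L and 12.69 to 13.73 in WT arrays. The summed signal of the 7 genes of the primary granule list was 12.98 to 13.76 in MDPs, 12.88 in array 2 of vehicle-treated WT CDPs and 8.79 to 9.85 in the other CDP arrays. The summed log2 signals were 6.88 to 7.65 for erythroid, 7.47 to 8.71 for B cell and 6.25 to 6.87 for T and NK cell genes over the 16 arrays, and sums of different lists are not set against each other. The part of these transcripts in the replication result was not tested.

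**Figure D4:**
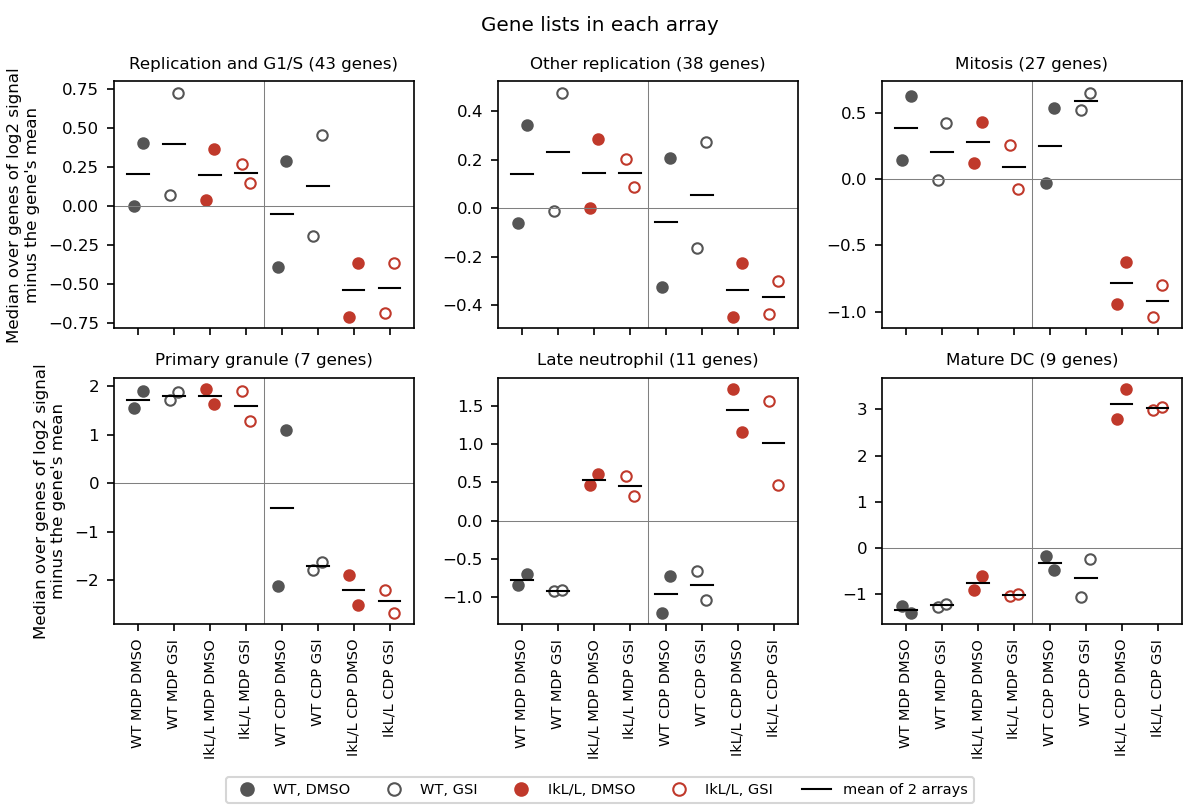
Median over the genes of a list of the log2 signal minus each gene's mean over the 16 arrays (y axis, scaled per panel), with a point for each array and a bar for the mean of 2 arrays, in 6 lists. The means of replication, other replication and mitosis genes are lowest and mature DC genes are highest in IkL/L CDPs, although 1 array of vehicle-treated WT CDPs (-0.39 for the 43 genes) lies among the IkL/L CDP arrays in both replication lists, and the primary granule genes are high in MDPs and in 1 array of vehicle-treated WT CDPs.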

How the data were processed

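RNA of 16 samples was hybridised to Affymetrix Mouse Gene ST arrays. RMA was run by the authors (Expression Console 1.4.1, from the submitters' processing notes), and log2 signals were deposited. No source used here gives the annotation version. Of 28188 probe sets, 21789 carry 1 symbol, 1621 several and 4778 none. Genes were the 19938 symbols of the first, with the brightest probe set for symbols with several (Pcna and Tk1 among the 43). A single linear model of 8 group means was fitted with limma 3.58.1 in R 4.3.3 (8 residual and 2.35 prior degrees of freedom). All tests were two-sided, with Benjamini-Hochberg adjustment over all genes. The procedure was tried on simulated arrays with planted changes larger than the median changes of this set and with noise independent between genes. It therefore does not cover changes of the size seen here or replicate shifts shared by many genes. The number of arrays limits the precision. The 43 genes, the other lists and the comparisons were chosen with earlier results of these data known.

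Values are given for every gene past the adjusted threshold in any comparison and, per role, for the genes with the largest and smallest change in vehicle-treated CDPs. From the other lists the genes past the threshold and the 4 with the largest change are named. Genes singled out beyond this were chosen after their values were seen. Alternatives were 25, of which 16 leave out an array. Promoter sequences are from RefSeq.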

Additional observations from a re-analysis of the deposited data

Results flagged for a closer look

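The genotype effect on Dbf4 differed between the stages by the test of the difference, a call that was lost without 11 of the 16 arrays (limma adjusted p up to 0.110), under a trended and robust prior and after a new quantile normalisation. The log2 fold change of IkL/L against WT was -1.16 in CDPs and -0.31 in MDPs, as means over vehicle and GSI, and the difference was -0.85 (SE 0.15, limma adjusted p = 0.0311). The signals were lower in 4 of 4 IkL/L CDP arrays than in all other 12 arrays.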

How the results depend on the processing

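All results were recomputed under 25 alternatives, except the counts without overlap, which were recomputed without each array and under other scalings only. Of 1645 values, 1545 were counts within 1.5-fold of the reported count or medians within the spread between replicates. A count that was 0 and stayed 0 is among them, so this total does not measure how stable the larger counts are. By more than the spread between replicates, 4 medians changed sign (0.0931, 0.10, -0.17 and -0.19). With the fit limited to the arrays compared, the counts of genes that fell in IkL/L CDPs were 0 with vehicle, 0 with GSI and 1 over both, and those of IkL/L CDPs against MDPs were 5 with vehicle and 14 with GSI. A trended and robust prior gave 0 for the difference between CDP and MDP effects and 2 for IkL/L CDPs against MDPs with vehicle, and so did a new quantile normalisation (0 and 2). With genes above the median signal alone the IkL/L stage counts were 2 with vehicle and 5 with GSI, and with array weights 3 and 11. The cause of these shifts was not tested. Without shares of all genes under these alternatives, whether the shifts are particular to this set was not tested either.

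Arrays of the same number were not paired by the labels. The replicate differences of 2 groups correlated above 0.1 in 17 of 28 pairs of groups (range -0.254 to 0.658), and in all pairs of CDP groups (0.348 to 0.658). With the replicate number as a block, the counts were 3, 11 and 20 in IkL/L CDPs (vehicle, GSI and both) and 12 and 12 for IkL/L CDPs against MDPs. With the numbers of GSI-treated IkL/L MDPs crossed, they were 6, 16, 27, 20 and 22, and 3 for the difference between the stages. The crossing was an alternative chosen after seeing the data. Shares of all genes under these fits are not given, so whether the higher counts are particular to this set was not tested.

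When each array was left out in turn, the median log2 fold change in IkL/L CDPs ran from -0.87 to -0.0845 with vehicle and from -1.02 to -0.35 with GSI. It ran from -0.49 to 0.0931 in GSI-treated MDPs, from -0.61 to 0.10 and from -0.68 to 0.0807 between WT CDPs and MDPs (vehicle, GSI), and for the GSI effect from -0.17 to 0.51 in WT MDPs and from -0.19 to 0.56 in WT CDPs. Counts of genes that fell ran from 0 to 2, 1 to 3 and 2 to 11 in IkL/L CDPs (vehicle, GSI and both), from 0 to 2 for the stage difference over both treatments, 0 to 1 with GSI alone, and 0 to 3 and 0 to 5 between IkL/L stages. The 1.5-fold counts ran from 2 to 28, 10 to 40 and 9 to 30 in CDPs and from 17 to 35 between IkL/L stages with vehicle. Counts without overlap ran from 15 to 41 with vehicle and from 13 to 23 over both. No detection calls were used here, so signal over background is unknown and differences of dim genes may be compressed.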
